A study of Mus musculus with 19 samples.

Results

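The replication-dependent histone genes of the mouse were followed across liver and duodenum of *Hfe*-/- mice, mice on an iron-supplemented diet and the controls of both. A gene was taken as a member when its older symbol began with Hist1h, Hist2h, Hist3h or Hist4h. The platform annotation carries current symbols (H1f, H2ac, H2bc, H3c and H4c with a number), and its Entrez identifiers were therefore matched to the RefSeq genes that have such a synonym. This gave 54 genes with 91 probes, out of 17711 named genes and 46632 probes on the array, and 70 genes of the annotation have such a synonym. Of the 54, 6 belong to the H1 class, 14 to H2A, 15 to H2B, 7 to H3 and 12 to H4, and *H2bu1-ps*, in the H2B class, is annotated as a transcribed pseudogene. *Hfe* itself lies inside the large histone cluster of chromosome 13, at chr13:23702034-23710854 (GRCm38.p6), and 44 members are on that chromosome. Of these, 28 start within 1 Mb of *Hfe* and 16 beyond it, and the remaining 10 members are on chromosomes 3, 6 and 11. Where a gene had several probes, as 29 members did, the one with the highest mean signal in the tissue was used.

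Each of the 19 Illumina Sentrix Mouse-6 arrays carried RNA of 1 male C57BL/6 mouse. The liver arrays came from 3 *Hfe*-/- mice (aged 10 to 12 weeks in the labels) and 2 wild-type mice (13 to 14 weeks), and from 3 mice on the iron-supplemented diet and 2 on the control diet (16 to 18 weeks). The duodenal arrays came from 2 *Hfe*-/- mice (10 to 11 weeks) and 2 wild-type mice (12 to 13 weeks), and again from 3 mice on the iron-supplemented diet and 2 on the control diet (16 to 18 weeks). In the *Hfe* experiment the labelled ages differ by a week between successive arrays of an organ, whereas the study's methods give both genotypes about the same age, and which of the 2 holds was not settled here. If the labels are the true ages, every *Hfe*-/- mouse was younger than every wild-type mouse, and age and genotype cannot be told apart. The sources used here do not name the strain in which the *Hfe* allele was targeted. The authors left out 1 more duodenal *Hfe*-/- array as divergent. By the study's methods both organs were taken from the same mice, but the labelled ages of the wild-type mice differ between the organs, and nothing in the labels links a liver array to a duodenal one. Between 12846 and 14369 probes were detected (detection p under 0.05) on the liver arrays and between 13936 and 16965 on the duodenal arrays. The *Hfe* probe gave log2 signals of 6.73, 6.68 and 6.50 in *Hfe*-/- liver against 6.77 and 6.60 in wild-type liver, and was below detection on all duodenal arrays. Its signal does not separate the genotypes, and the part of the transcript it reads is unknown here, so that it does not check the knockout.

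Histones H2A, H2B, H3 and H4 form the core around which DNA is wrapped, and H1 binds the linker DNA between cores. The genes described here are transcribed mainly in S phase, when newly copied DNA is packed, and their transcripts end in a conserved stem-loop instead of a poly(A) tail. The stem-loop is bound by Slbp, and the transcripts are cut by a complex that contains the U7 snRNP. The duodenal epithelium is renewed from dividing crypt cells, whereas hepatocytes of adult liver rarely divide. Labelling with the kit used here starts from an oligo(dT) primer, so that transcripts without a poly(A) tail are expected to be labelled poorly, and how much of each signal came from polyadenylated forms was not measured. The coding sequences within a class are nearly alike, and probe sequences were not used here, so that the signal of 1 probe may include several genes of its class.

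Many H2A and H2B genes lie head to head and share the stretch between their starts. Among the members with a promoter window for both genes, 6 such pairs were found, all on chromosome 13, with under 300 bases between the annotated starts. The stretches of 4 of them are shown because their genes gave opposite tissue differences (given further on), together with the 150 bases before *H4c8* and *H4c1*, which fell in liver on the iron diet. All are RefSeq sequence of GRCm38.p6, read in the direction of the H2A or H4 gene. Capitals mark 3 motifs on either strand. The CCAAT box was searched as CCAAT and, for the other strand, ATTGG. The TATA box was searched as TATAAA and its reverse complement, and the octamer as ATTTGCAT and its reverse complement. The windows are chr13:21716184-21716411 (plus strand), chr13:21753913-21754075 (minus), chr13:21787249-21787487 (minus) and chr13:22035644-22035820 (minus) for the pairs, chr13:23530894-23531043 (plus) for *H4c8* and chr13:23761250-23761399 (minus) for *H4c1*.
H2ac13/H2bc13: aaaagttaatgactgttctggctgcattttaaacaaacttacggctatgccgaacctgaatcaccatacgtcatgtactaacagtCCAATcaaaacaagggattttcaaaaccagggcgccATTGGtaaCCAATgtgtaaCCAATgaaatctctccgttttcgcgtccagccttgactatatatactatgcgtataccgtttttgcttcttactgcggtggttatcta
H2ac15/H2bc15: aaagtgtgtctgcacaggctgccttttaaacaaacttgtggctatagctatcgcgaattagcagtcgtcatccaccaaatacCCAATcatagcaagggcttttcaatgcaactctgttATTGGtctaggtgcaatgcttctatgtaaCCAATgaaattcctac
H2ac22/H2bc22: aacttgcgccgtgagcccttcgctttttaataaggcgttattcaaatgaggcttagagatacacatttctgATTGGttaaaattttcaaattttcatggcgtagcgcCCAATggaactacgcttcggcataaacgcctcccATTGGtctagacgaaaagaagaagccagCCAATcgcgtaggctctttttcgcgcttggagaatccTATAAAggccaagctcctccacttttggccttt
H2ac12/H2bc12: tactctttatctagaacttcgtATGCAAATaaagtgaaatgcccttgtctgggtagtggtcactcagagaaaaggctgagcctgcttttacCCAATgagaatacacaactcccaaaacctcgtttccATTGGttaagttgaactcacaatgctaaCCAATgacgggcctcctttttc
H4c8: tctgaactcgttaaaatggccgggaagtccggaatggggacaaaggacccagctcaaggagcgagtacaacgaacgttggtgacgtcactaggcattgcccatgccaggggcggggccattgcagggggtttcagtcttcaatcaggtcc
H4c1: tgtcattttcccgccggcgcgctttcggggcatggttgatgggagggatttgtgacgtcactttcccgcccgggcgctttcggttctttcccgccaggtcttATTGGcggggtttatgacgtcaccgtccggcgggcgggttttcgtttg

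The pair windows held 4, 3, 4 and 3 CCAAT matches in the order printed. The H2ac22/H2bc22 window also held 1 TATAAA, and the H2ac12/H2bc12 window 1 ATTTGCAT. *H4c1* had 1 CCAAT match, and none of the 3 motifs was found in the window of *H4c8*. Of the 54 members, 49 had a promoter window. In the 150 bases before the start, CCAAT was found in 40 of the 49, against 25.3% of 27025 genes, with 6 of 6 H1, 14 of 14 H2A, 12 of 12 H2B, 5 of 6 H3 and 3 of 11 H4 genes. TATAAA was found in 21 of 49 members (8.08% of all genes), and ATTTGCAT, the octamer known from H2B promoters, in 5 of 14 H2A and 3 of 12 H2B genes and in no H1, H3 or H4 gene (1.02% of all genes). Windows of a head-to-head pair are largely the same sequence, so that these counts are not independent, and a match does not show that a factor is bound there.

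A large part of the family gave no signal. In liver, 28 members were detected on every array and 16 on none, and in duodenum 35 on every array and 11 on none. The 11 members detected on no array of either tissue included *H1f6* and *H2bc1*, which encode testis forms of H1 and H2B. *H1f2*, which encodes the linker histone H1.2, was the only H1 gene that was tested in any comparison. Of the 3 members nearest to *Hfe* on each side, *H2bc4* (9.55 kb before it) and *H1f2* (28.0 kb after it) were detected on every array. *H4c3* was detected on 1 of 10 liver and 5 of 9 duodenal arrays, and *H1f6*, *H3c3* and *H2bc3* on none.

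The family differed most between the tissues. The wild-type and control-diet arrays of duodenum and liver (4 each) were compared by limma over 18348 probes, of which 27.3% were called higher and 26.6% lower in duodenum at an adjusted p under 0.05. Of 39 members tested, 18 were higher and 12 lower, and the median log2 difference was 0.19 over the members and 0.0002 over all probes. The direction went with the class. Of the H2A genes, 9 were higher and 2 lower, of the H2B genes 1 was higher and 9 lower, of the H3 genes 4 were higher and none lower, and of the H4 genes 4 were higher and 1 lower. Bulk RNA of a tissue cannot tell a different number of cells from a different amount of RNA per cell.

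*H2ac23* gave log2 signals of 12.97, 12.08, 12.20 and 12.71 in untreated duodenum against 8.57, 8.81, 8.28 and 8.48 in untreated liver. The difference of 3.95 (SE 0.20) was 15.5-fold, with an adjusted p of 1.71e-06. *H2ac13* differed almost as much, with 13.20, 12.35, 12.57 and 13.12 in duodenum and 8.90, 9.15, 8.69 and 8.90 in liver (difference 3.90, SE 0.20, adjusted p 1.74e-06). *H2ac6*, *H2ac12* and *H2ac15* were higher by between 3.70 and 3.92 as well, and these 5 genes followed each other closely, with pairwise Pearson r between 0.89 and 0.989 over the 10 liver arrays and between 0.803 and 0.99 over the 9 duodenal arrays. They encode nearly the same protein, and whether their probes read separate transcripts was not tested. *H2ac10* and *H2ac22* were higher by 1.60 and 1.57 with the probes used, and the size depended on the probe. Normalized within each tissue, the other probe of *H2ac10* gave 11.51 to 12.50 in untreated duodenum and 8.08 to 8.57 in untreated liver. Another probe of *H2ac22* gave 11.36 to 12.41 in untreated duodenum and 7.99 to 8.65 in untreated liver. *H2ac20* on chromosome 3 was higher by 2.22 with the probe used. The other probe of *H2ac20* was detected on every array and was lower in duodenum. Normalized within each tissue, it gave 7.27, 7.32, 7.62 and 7.34 in untreated duodenum and 8.19, 8.22, 8.15 and 8.50 in untreated liver. The sign for *H2ac20* thus depended on the probe. Its neighbours on chromosome 3, *H2ac18* and *H2ac19*, were lower in duodenum. Their differences were -1.25 (SE 0.16, adjusted p 0.000368) and -0.98 (SE 0.085, adjusted p 3.54e-05). The H2A genes were thus not uniform, and the chromosome 13 members alone gave 8 higher and none lower.

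Most H2B genes were lower in duodenum. *H2bc4*, the nearest gene before *Hfe* that was detected on every array, gave 10.24, 10.92, 10.78 and 10.23 in untreated duodenum and 11.59, 11.44, 11.50 and 11.53 in untreated liver, a difference of -0.97 (SE 0.17, adjusted p 0.00189). *H2bc15* differed by -0.91, *H2bc11* by -0.83, *H2bc9* by -0.81 and *H2bc22* by -0.80. *H2bc6*, below detection on the untreated liver arrays, had means of 6.61 in untreated duodenum and 6.44 in untreated liver and did not pass (adjusted p 0.0546). *H2bc21* was the only H2B gene called higher. The probe used for it was below detection on all liver arrays, while its other probe was detected on 3 of 10. With the probe used, *H2bc21* was at least 1.27-fold higher in duodenum (adjusted p 0.00868), where the bound sets its signal against the lowest detected signal of each liver array. Each head-to-head pair whose sequence is printed above had its H2A gene higher and its H2B gene lower in duodenum. The log2 differences were 3.90 and -0.70 for *H2ac13* and *H2bc13*, 3.70 and -0.91 for *H2ac15* and *H2bc15*, 3.80 and -0.71 for *H2ac12* and *H2bc12*, and 1.57 and -0.80 for *H2ac22* and *H2bc22*. In the *H2ac8* and *H2bc8* pair the differences were 0.57 and 0.13, and the second did not pass (adjusted p 0.0841). The *H2ac1* and *H2bc1* pair was not detected. The H2B genes *H2bc4* and *H2bc21* had no promoter window, so that their orientation was not read here. *H2bc4* lies 239 bases from *H2ac6*, and the differences were -0.97 for *H2bc4* and 3.92 for *H2ac6*. *H2bc21* lies 191 bases from *H2ac20* on chromosome 3, and here both genes were higher in duodenum with the probes used (2.22 for *H2ac20*). The other probe of *H2ac20* was lower in duodenum, as given above.

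**Figure D1:**
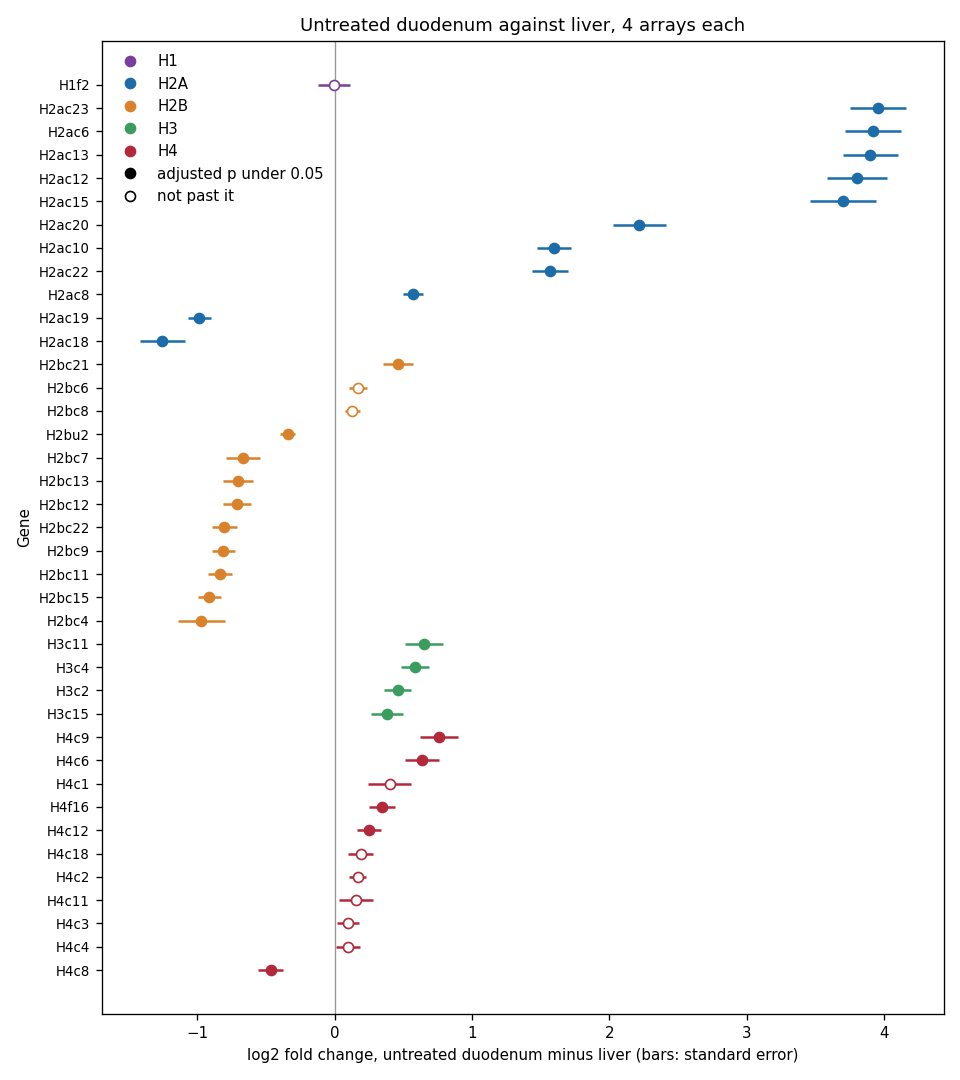
Log2 difference, untreated duodenum minus untreated liver (4 arrays each), for the 39 tested members by histone class, with SE as bars. A group of 5 H2A genes lies near 4 and most H2B genes between -1 and -0.5.

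Among the other classes, *H3c11* (difference 0.65), *H3c4* (0.59), *H3c2* (0.46) and *H3c15* (0.38) were higher in duodenum. *H4c9* (0.76), *H4c6* (0.64) and *H4c12* (0.25) were higher too, as was *H4f16* on chromosome 6, which was below detection on all 4 liver arrays (at least 1.07-fold, adjusted p 0.0166). *H4c8* was lower, by -0.46. *H1f2* did not separate the tissues, with a difference of -0.0019 (SE 0.12, adjusted p 0.99). Genes that drive S phase were higher in duodenum in 16 of 23 tested and lower in 1 (median 0.59; *Uhrf1* 2.04, *Mcm5* 1.87), and G2 and mitosis genes in 11 of 13 (median 1.05; *Plk1* 1.99). Most H2B genes therefore ran against both lists. Replication-independent histone variants were higher in 4 of 5 (*Cenpa*, the centromeric H3, by 1.52), histone chaperones in 4 of 13 with 5 lower, and genes for the 3′ end of histone transcripts in 3 of 9 with 2 lower (*Snrpf* 0.87, *Cstf2* 0.79; *Lsm10*, a protein of the U7 snRNP, -0.83). The enterocyte, crypt and Paneth, and hepatocyte lists followed the labels. All 6 enterocyte genes tested and 4 of 5 crypt and Paneth genes were higher in duodenum, and all 7 hepatocyte genes were lower, as were all 3 erythroid and all 5 macrophage genes. Of the pancreatic acinar genes 10 of 11, and of the lymphocyte genes 5 of 7, were higher. The summed acinar signal was uneven among the untreated duodenal arrays. It was 182178 and 3462 on the wild-type arrays and 169214 to 188706 on the control-diet arrays. In liver it was 3903 to 4429 on the wild-type arrays and 3955 to 4063 on the control-diet arrays. Its part in the histone values was not tested.

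Dietary iron gave the only histone calls within a tissue. In liver, 33 members were tested between iron-diet and control-diet mice, and 5 fell while none rose, against 1.01% lower and 1.11% higher of all 14919 probes. At an unadjusted p under 0.05 there were 17 lower and 1 higher member, against 8.41% and 7.68% of all probes. Probes of a class may share signal, so that these members are not independent counts. The probes of a gene disagreed in sign in 4 of 15 members with several tested probes, namely *H2ac10*, *H2ac18*, *H2ac22* and *H3c2*. The median over the members was -0.28 and over all probes -0.007. All 8 tested H4 genes had a negative difference (median -0.33), as did 9 of 10 H2B genes (median -0.33). The H2A genes were mixed (6 of 11 negative, median -0.07), and the 3 tested H3 genes had a median of 0.10.

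Of the 5 genes that fell, 4 encode H4, which is the same protein from each of them. *H4c8* gave log2 signals of 7.26, 6.99 and 7.19 on the iron diet against 7.81 and 7.95 on the control diet. It was 1.66-fold lower on the iron diet (difference -0.73, SE 0.098, adjusted p 0.0147), and its second probe gave -0.49 (adjusted p 0.0358). *H4c1* gave 7.02, 6.79 and 6.86 on the iron diet against 7.60 and 7.55 on the control diet, a difference of -0.68 (SE 0.087, adjusted p 0.0124). These genes lie 171 kb before and 49.9 kb after *Hfe*. *H4c11*, almost 2 Mb before *Hfe*, gave 6.68, 6.63 and 6.85 against 7.26 and 7.18 (difference -0.50, SE 0.087, adjusted p 0.0364). *H4c18* gave 6.83, 6.85 and 6.76 on the iron diet against 7.22 and 7.18 on the control diet (difference -0.39, SE 0.070, adjusted p 0.0420). All 4 genes were detected on every liver array, where the lowest detected signal averaged 6.56 over the iron-diet arrays. For *H4c8*, *H4c1* and *H4c18* the control-diet mice were higher than all other liver arrays. *H4c8* gave 7.67 and 7.52 and *H4c1* 7.14 and 7.10 in wild-type mice, between the iron-diet and the control-diet signals.

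The fifth gene was *H2ac18* on chromosome 3, with 9.64, 9.82 and 9.93 on the iron diet against 10.35 and 10.46 on the control diet (difference -0.61, SE 0.099, adjusted p 0.030). Its other probes gave -0.30 (adjusted p 0.337) and 0.10 (adjusted p 0.763, detected on 2 arrays), so that the fall was read by 1 of 3 probes. *H2ac20* (-0.38, adjusted p 0.0638) and *H2ac19* (-0.37, adjusted p 0.105) beside it on chromosome 3 had differences of the same sign that did not pass. The H2B genes with the smallest p were *H2bc22* (-0.41, adjusted p 0.105), *H2bc9* (-0.43, adjusted p 0.125) and *H2bc12* (-0.40, adjusted p 0.132). *H4c4* was below detection on all 3 iron-diet arrays and detected on both control arrays, and was at least 1.13-fold lower on the iron diet (adjusted p 0.107). *H1f2* had the highest difference, 0.48, with 10.75, 10.68 and 10.63 on the iron diet against 10.48 and 9.94 on the control diet (adjusted p 0.163), and *H3c2* (0.27) and *H2ac12* (0.15) followed.

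**Figure D2:**
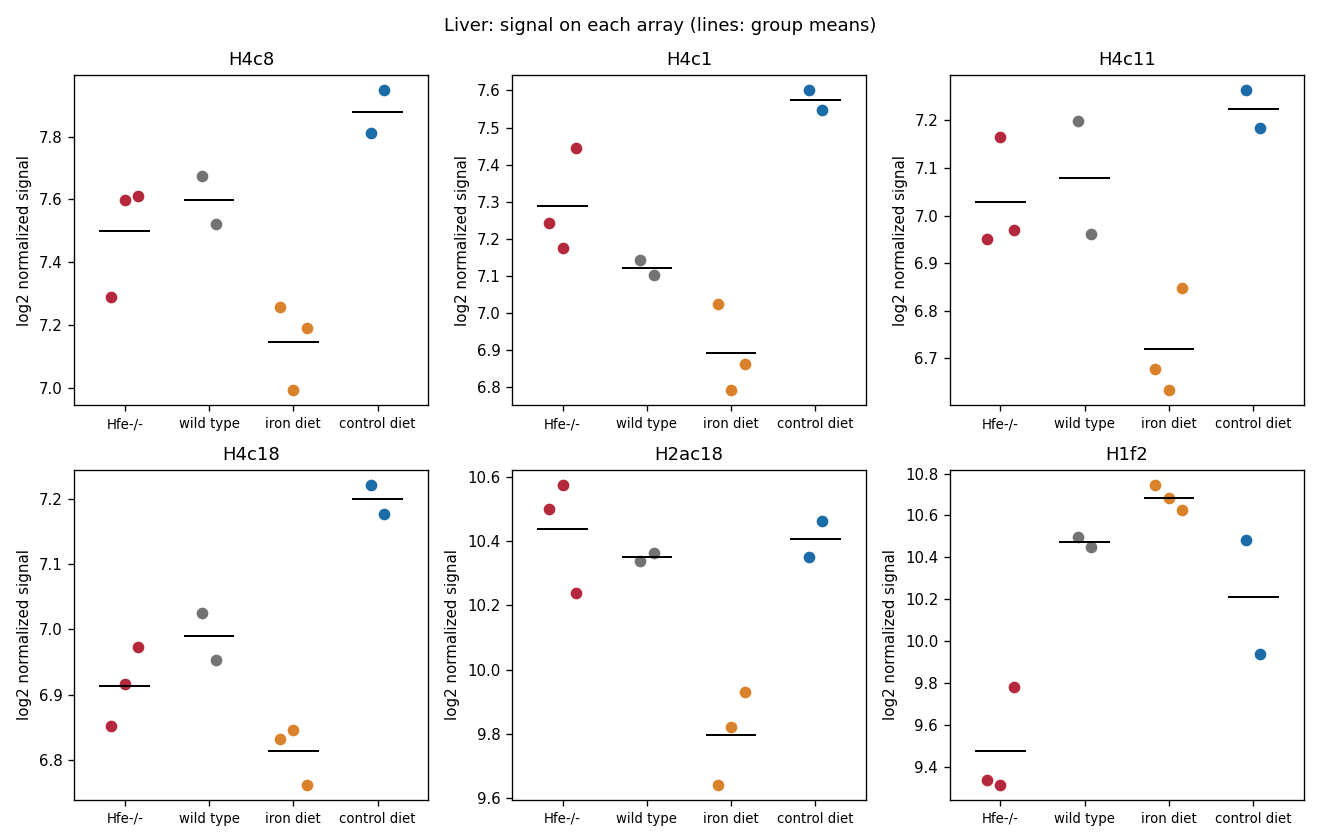
Log2 quantile-normalized signal of 6 members on each liver array, in *Hfe*-/-, wild-type, iron-diet and control-diet mice, with lines at the group means. The iron-diet means of *H4c8*, *H4c1*, *H4c11*, *H4c18* and *H2ac18* lie below the control-diet means, and *H1f2* is lowest in *Hfe*-/- mice.

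These 5 calls rested on few arrays. No member was called when iron-diet replicate 2, control replicate 1 or control replicate 2 was left out, nor under median scaling in place of quantile normalization, where 81 of all probes were called instead of 317. *H4c18* lost its call whichever array was left out, and *H4c11* was also lost without iron-diet replicate 1. With the mean of a gene's probes, *H4c11* and *H4c18* were called and the other 3 were not. The differences of the 5 genes stayed between -0.80 and -0.36 with any 1 array left out. Of the other lists, the S phase genes had 0 of 19 called in liver on the iron diet (median 0.07), with summed signals of 2849, 2848 and 2857 on the iron diet and 2694 and 2863 on the control diet. The S phase sums on the iron diet thus lay between those of the control mice. The part of these genes in the histone values was not tested. Of the 3′ end genes, *Lsm10* rose by 0.43 (adjusted p 0.0220), the only one of 9 that was called. *Alas2*, which catalyses the first step of heme synthesis in erythroid cells, fell by 1.12 on the log2 scale (adjusted p 0.00232) and was the only one of 3 tested erythroid markers that was called.

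In liver of *Hfe*-/- mice no member was called. There were 34 members tested, and of all 14160 probes 0.0212% were called higher and 0.00706% lower. At an unadjusted p under 0.05 there were 4 higher and 6 lower members, against 4.39% and 4.56% of all probes. The median was -0.06 over the members and -0.007 over all probes. By class, 10 of 11 H2A genes had a positive difference (median 0.12), 9 of 10 H2B genes a negative one (median -0.24), and all 4 H3 genes a negative one (median -0.19).

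*H1f2* stood lowest. It gave 9.33, 9.31 and 9.78 in *Hfe*-/- liver against 10.50 and 10.45 in wild-type liver, and the groups did not overlap. The difference was -0.998 (SE 0.14, unadjusted p 0.000132, adjusted p 0.115), or 2.00-fold, and with 1 array left out it stayed between -1.15 and -0.92 (adjusted p between 0.0292 and 0.457). The wild-type signals lay beside those of the diet experiment, in which iron-diet and control-diet liver gave between 9.94 and 10.75. After *H1f2* came 3 H2B genes that lie between *Hfe* and 159 kb before it. *H2bc9* gave 9.49, 9.71 and 9.44 in *Hfe*-/- liver against 9.98 and 10.00 in wild-type liver (difference -0.44, adjusted p 0.278). *H2bc7* had a difference of -0.37 (adjusted p 0.452). *H2bc4* gave 11.37, 11.23 and 11.15 against 11.66 and 11.50 (difference -0.33, adjusted p 0.401). *H2bc15* (-0.30) and *H2bc22* (-0.29), beyond 1 Mb, had similar differences.

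The highest difference in *Hfe*-/- liver was that of *H2ac19* on chromosome 3, with 10.76, 10.98 and 10.81 in *Hfe*-/- mice against 10.41 and 10.47 in wild-type mice (0.41, adjusted p 0.278). *H2bc13* (0.36, adjusted p 0.441), *H4c6* (0.35, adjusted p 0.323) and *H4c9* (0.28, adjusted p 0.491) followed. *H2ac13* and *H2ac23*, of the group of 5 H2A genes above, had differences of 0.14 and 0.13, and *Hfe*-/- replicate 2 was lowest for both. *H2ac23* gave 9.17, 8.23 and 8.78 in *Hfe*-/- liver against 8.47 and 8.73 in wild-type liver, so that the spread among *Hfe*-/- mice was wider than the difference. Without *Hfe*-/- replicate 1 both differences turned negative (-0.12 and -0.10). The S phase genes had 0 of 20 called and 6 at an unadjusted p under 0.05, all lower (*Mcm4* -0.51, *Mcm6* -0.50, *Mcm5* -0.44, *Rrm1* -0.29). Their summed signal was 2835, 2776 and 2932 in *Hfe*-/- liver against 3050 and 3388 in wild-type liver. Its part in the histone values was not tested.

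The *Hfe* difference and the diet difference in liver were then set against each other in 1 fit of all 4 liver groups, over 13382 probes, of which 0.508% were called with a higher and 0.516% with a lower *Hfe* difference. Of 32 members tested, 3 were called. *H1f2* had the lower *Hfe* difference, by -1.47 (SE 0.23, adjusted p 0.0196). *H4c1* had the higher *Hfe* difference, by 0.85 (SE 0.14, adjusted p 0.0200). The larger part came from its diet difference of -0.68. Its *Hfe*-/- signals of 7.24, 7.18 and 7.44 stood against 7.14 and 7.10 in wild-type mice, a difference of 0.17 that did not pass (adjusted p 0.697). *H2ac19* was also higher, by 0.78 (SE 0.14, adjusted p 0.0273), and *H2ac18* followed with 0.70 (adjusted p 0.0727). All 8 H4 genes had a positive value (median 0.42). No member was called without wild-type replicate 2 or without iron-diet replicate 2. Only *H4c1* was called without wild-type replicate 1, and only *H1f2* without control replicate 1, without control replicate 2 or under median scaling.

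In duodenum of *Hfe*-/- mice, too, no member was called, in a comparison of 2 arrays with 2. Of all 16599 probes 0.00602% were called higher and 0% lower, so that a count of 0 among 38 members is near the share in the whole table. At an unadjusted p under 0.05 there were 0 higher and 15 lower members, against 3.38% and 3.52% of all probes. Probes of a class may share signal, so that these members are not independent counts. The median was -0.20 over the members and -0.02 over all probes, and 76.3% of the members had a negative difference against 56.6% of all probes. The H2A genes had a median of -0.72, with 8 of 11 at an unadjusted p under 0.05, and all 12 H2B genes were negative (median -0.27). The H3 and H4 genes had medians of -0.01.

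*H2bc7* gave 9.24 and 9.29 in *Hfe*-/- duodenum against 9.91 and 10.49 in wild-type duodenum (difference -0.94, unadjusted p 0.0046, adjusted p 0.641). *H2bc9* gave 8.69 and 8.57 against 9.30 and 9.64 (difference -0.84, adjusted p 0.605). In both, wild-type replicate 2 was the highest array. Of the 11 H2A genes tested, 9 had wild-type replicate 1 highest, and *H2ac18* and *H2ac19* had *Hfe*-/- replicate 2 highest. *H2ac13* gave 11.71 and 11.98 in *Hfe*-/- duodenum against 13.12 and 12.32 in wild-type duodenum (difference -0.88, adjusted p 0.650). *H2ac23* gave 11.44 and 11.81 against 12.86 and 12.04 (difference -0.82, adjusted p 0.683), and *H2ac10* 11.97 and 11.99 against 13.01 and 12.54 (difference -0.80, adjusted p 0.641). In these 5 genes the wild-type mice lay between 0.34 and 0.82 apart, as far as many of the differences.

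Other members past an unadjusted p of 0.05 were *H2ac6* (-0.76), *H2ac22* (-0.69), *H2bc22* (-0.68), *H2bc11* (-0.60), *H2bc15* (-0.59), *H1f2* (-0.44) and *H3c11* (-0.34). *H1f2* gave 9.94 and 9.90 in *Hfe*-/- duodenum against 10.31 and 10.43 in wild-type duodenum (adjusted p 0.646). The highest differences were those of *H3c2* (0.22), *H4c6* (0.21) and *H2ac19* (0.19), and *H2bc4* beside *Hfe* was at -0.02, with 10.51 and 10.55 in *Hfe*-/- mice against 10.23 and 10.89 in wild-type mice. The probes of a gene disagreed in sign in 8 of 18 members with several tested probes, *H3c2* and *H4c6* among them.

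The wild-type arrays of this comparison were unlike each other in another way. The summed signal of 11 pancreatic acinar genes was 169855 and 251451 in *Hfe*-/- duodenum, against 182178 in wild-type replicate 1 and 3462 in replicate 2, with a median log2 difference of 3.37, and it lay between 166191 and 188706 on the diet arrays. All 11 genes were detected on both *Hfe*-/- arrays. Without wild-type replicate 2, no member was called either and the median was -0.21; *H2ac13* was then at -1.28 (adjusted p 0.115) and *H2bc7* at -0.65 (adjusted p 0.364). Without wild-type replicate 1, the median was -0.19, *H2ac13* was at -0.48 (adjusted p 1) and *H2bc7* at -1.22 (adjusted p 0.057). The S phase genes had 0 of 22 called and 4 lower at an unadjusted p under 0.05 (*Rrm1* -0.68, *Mcm5* -0.63, *Fen1* -0.52, *Mcm2* -0.48). Their summed signal was 5396 and 5120 in *Hfe*-/- duodenum against 6936 and 5598 in wild-type duodenum, with wild-type replicate 1 highest as for 9 of the 11 H2A genes. The part of either list in the histone values was not tested.

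**Figure D3:**
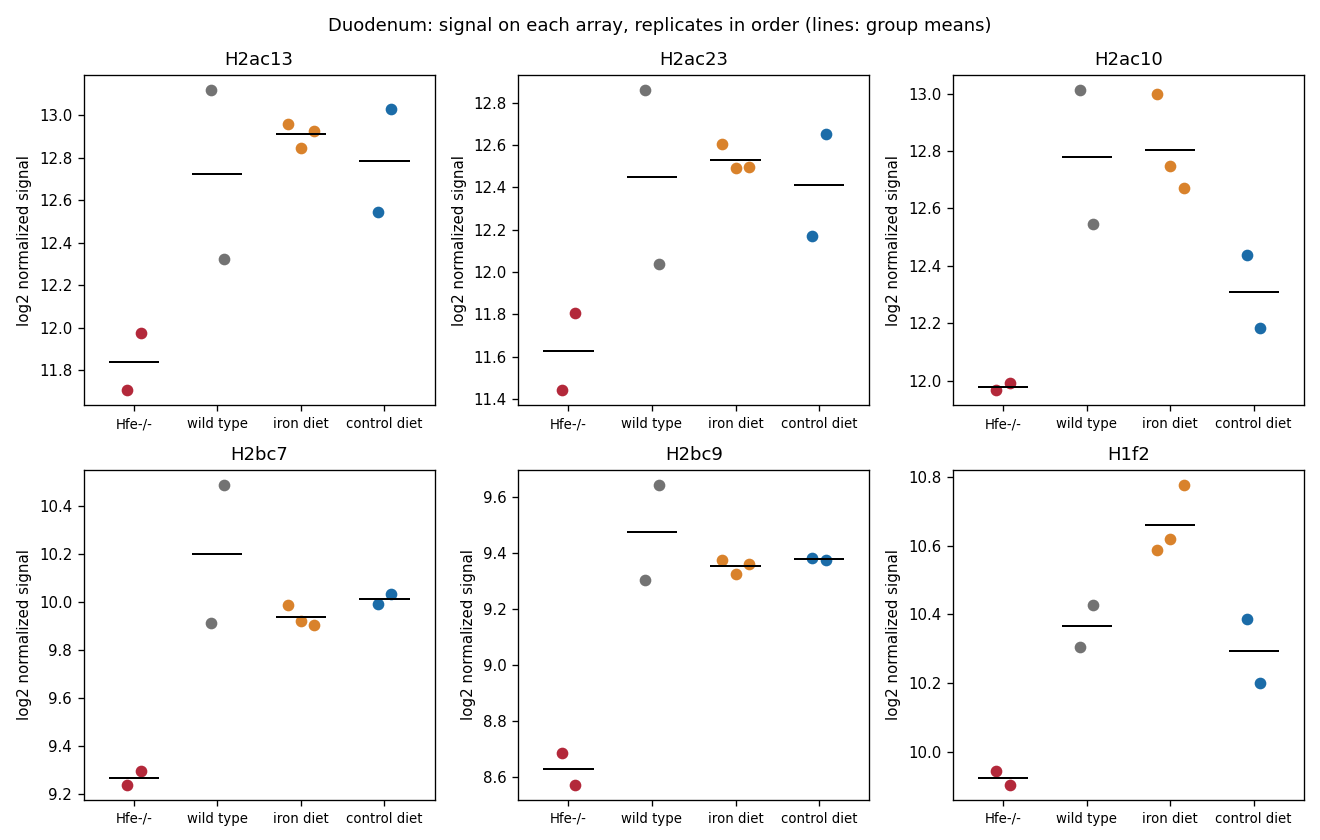
Log2 quantile-normalized signal of 6 members on each duodenal array, in *Hfe*-/-, wild-type, iron-diet and control-diet mice, with lines at the group means. The group means of *H2ac13*, *H2ac23*, *H2ac10*, *H2bc7*, *H2bc9* and *H1f2* are lower in *Hfe*-/- than in wild-type mice.

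In duodenum on the iron diet no member was called among 39, against 0.171% higher and 0.25% lower of 16373 probes. At an unadjusted p under 0.05 there were 3 higher and 0 lower members, against 4.93% and 4.96% of all probes. The median was -0.05 over the members and 0.01 over all probes. All 11 H4 genes (median -0.13) and all 4 H3 genes (median -0.15) had a negative difference, while 9 of 12 H2A genes had a positive one (median 0.11). In all 4 H3 genes control replicate 2 was the highest array. For *H3c2*, *H3c4* and *H3c11* control replicate 1 lay below every iron-diet array. *H3c11* gave 7.48, 7.42 and 7.53 on the iron diet against 7.34 and 7.92 on the control diet. Without control replicate 2 the median over the members was 0.045.

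*H2ac22* gave 12.77, 12.75 and 12.64 on the iron diet against 12.24 and 12.12 on the control diet, with no overlap (difference 0.54, unadjusted p 0.000442, adjusted p 0.0790). Its other 3 probes gave 0.13, 0.02 and -0.02, so that the difference was read by 1 of 4 probes. *H2ac10* was at 0.50 (adjusted p 0.269) and its other probe at 0.12. *H1f2* gave 10.59, 10.62 and 10.78 on the iron diet against 10.39 and 10.20 on the control diet (difference 0.37, adjusted p 0.299). *H2ac18* gave 9.49, 9.48 and 9.54 against 9.43 and 8.66 (0.46, adjusted p 0.529), where control replicate 2 stood apart. The same array was the highest for the members with the lowest differences. *H4c6* gave 7.60, 7.74 and 7.79 on the iron diet against 7.79 and 8.33 on the control diet (-0.35), *H4c1* 7.79, 7.94 and 7.85 against 7.83 and 8.56 (-0.34), and *H4c9* 7.63, 7.65 and 7.82 against 7.66 and 8.23 (-0.25). Without that array *H4c1* was at 0.03 and *H4c9* at 0.04, so that their sign came from it.

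Lymphocyte markers moved in the same comparison. All 7 had a negative difference (median -0.54), 4 of them at an unadjusted p under 0.05, and their summed signal was 1049, 1020 and 981 on the iron diet against 1293 and 1578 on the control diet, highest in control replicate 2. Their part in the histone values was not tested. The S phase genes had 0 of 23 called (median 0.05).

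Between the tissues, the diet difference was compared over 12971 probes, of which 0.362% were called higher and 0.547% lower in duodenum than in liver. *H2ac22* was the only member called, with a diet difference higher by 0.93 in duodenum than in liver (SE 0.16, adjusted p 0.0256), and *H2ac10* was at 0.93 with an adjusted p of 0.0626. The call was lost without iron-diet replicate 2 or either control array of liver, without iron-diet replicate 1 or 2 or control replicate 2 of duodenum, and under median scaling. The *Hfe* difference was compared over 12553 probes, of which 0% were called higher and 0.00797% lower in duodenum. No member was called, and *H2ac10* had the smallest p among those named here (-0.92, adjusted p 0.190). Without wild-type replicate 2 of duodenum, *H2ac10*, *H2ac20* and *H2ac22* were called. Between the *Hfe* and the diet difference in duodenum, 0% of 15151 probes were called higher and 0% lower. *H2ac10* (-1.30), *H2ac22* (-1.23) and *H1f2* (-0.81) each had an adjusted p of 0.154.

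The calls were spread over all 3 position classes. Of the 5 genes that fell in liver on the iron diet, 2 lie within 1 Mb of *Hfe*, 2 farther along chromosome 13 and 1 on chromosome 3. The median difference in that comparison was -0.19 over 14 members within 1 Mb, -0.32 over 14 beyond it and -0.37 over 5 on other chromosomes. In *Hfe*-/- liver the medians were -0.14 over 13 members, -0.01 over 15 and 0.03 over 6. In *Hfe*-/- duodenum they were -0.14 over 15, -0.59 over 15 and 0.10 over 8, and on the iron diet in duodenum -0.04, -0.05 and -0.04. In both *Hfe*-/- tissues the chromosome 13 members therefore had lower medians than the others, with the more distant block lower in duodenum and the nearer block lower in liver. No test was made of these medians. The median log2 signal over all tested members had an SD between arrays of 0.18 in *Hfe*-/- and wild-type liver. It was wider than any distance between the liver medians of -0.14, -0.01 and 0.03. In duodenum that SD was 0.14. This SD is the spread of a signal level over all tested members, so that it does not measure the spread of a block's median difference. The blocks were not matched for histone class, and the class medians differed in *Hfe*-/- duodenum, as given above. Genes of other families within 1 Mb of *Hfe* had 0 called in all 4 comparisons. Their medians were 0.08 over 7 tested in *Hfe*-/- liver, -0.02 over 9 in liver on the iron diet (*Slc17a1*, a phosphate transporter, -0.48, adjusted p 0.0567), -0.05 over 4 in *Hfe*-/- duodenum and 0.04 over 5 in duodenum on the iron diet. In the comparison of untreated tissues 1 of 10 was higher and 6 lower in duodenum.

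**Figure D4:**
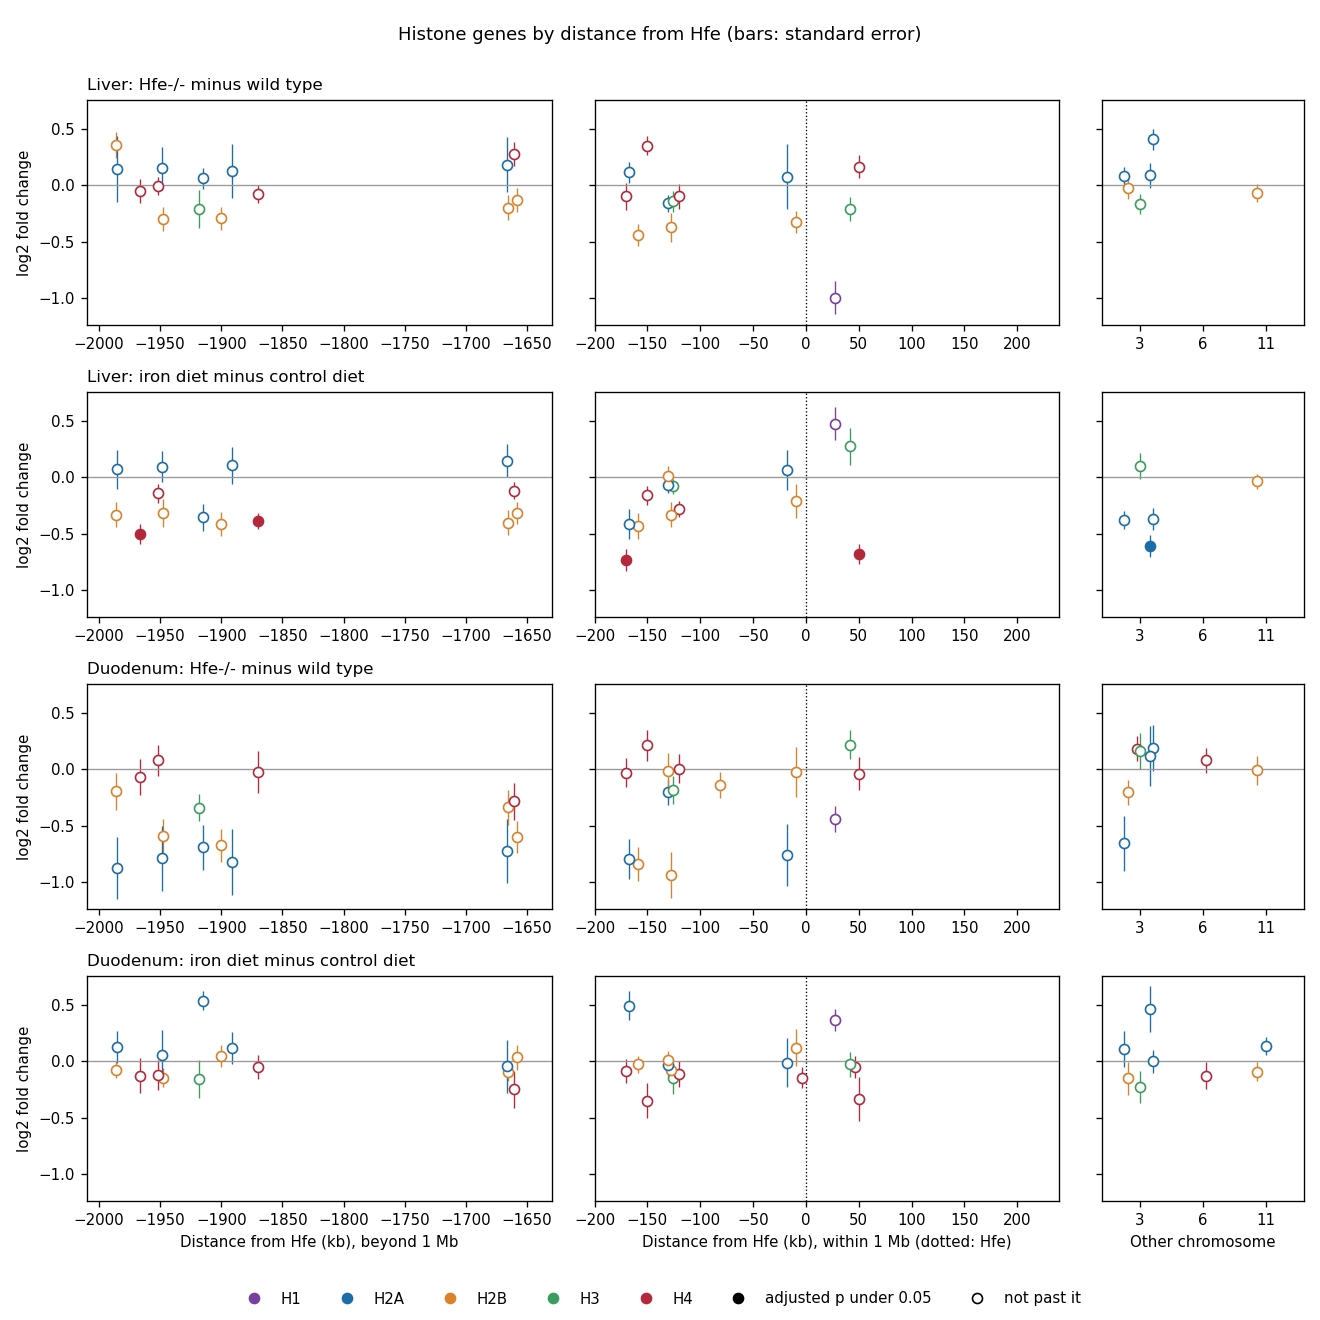
Log2 fold change (with SE) of each tested member in the 4 comparisons against distance from *Hfe* on chromosome 13 (beyond and within 1 Mb) and for the members on other chromosomes, coloured by histone class, filled at an adjusted p under 0.05. Filled points appear only in liver on the iron diet, at -0.73 to -0.39, in all 3 columns.

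Across the 4 comparisons the genes around histone supply gave few calls. *Lsm10* in liver on the iron diet was the only 3′ end gene called in any of them. The 17 chaperone and chromatin assembly genes, the 17 G2 and mitosis genes and the 6 replication-independent variants had none (in *Hfe*-/- duodenum, 3 of 5 tested variants were lower at an unadjusted p under 0.05, with *H2aj* at -0.61). No hepatocyte, enterocyte, crypt and Paneth, macrophage, lymphocyte or pancreatic acinar gene was called in these 4 comparisons.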

How the data were processed

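Illumina Sentrix Mouse-6 arrays of 19 samples were used. The deposited signal file gives raw bead intensity (linear, without background subtraction or normalization by the authors) and, for each value, a deposited detection p-value. The second deposited file, a table of processed values, holds log2 values that the authors had quantile-normalized in Chipster. In liver these correlated with the log2 intensity of the same probe at 0.987 or more, with *Hfe*-/- replicates 1 and 2 exchanged, and in duodenum at 0.0111 or less, so that it served as an alternative in liver only. Replicate numbers follow the signal file.

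For each tissue, log2 intensity was quantile-normalized over its arrays, or over all 19 arrays where tissues were compared. A probe entered a comparison when 2 or more of its arrays had a detection p under 0.05, and was tested with limma 3.58.1 (lmFit and eBayes, R 4.3.3, with the data.table package, version 1.17.8), and p-values were adjusted by the Benjamini-Hochberg method over all probes tested, with a threshold of 0.05. For differences of differences, detection on 2 arrays of each comparison was asked. The fits were tested on simulated data. Replicates were single mice. Depth does not apply to arrays, and their number limits the precision. The files used here give neither slide nor scan.

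Values are named for members past the threshold, the 3 highest and 3 lowest in each comparison, up to 12 past an unadjusted p of 0.05, the neighbours of *Hfe*, and *H1f2*, *H2ac23* and *H2ac13*; of other lists, up to 4 genes by p. Members, rule and gene lists were chosen with earlier results of these data known. Where a group was below detection, the lowest detected signal of each array took its place where higher, and the fold is a bound. Promoter windows came from the RefSeq promoter set of GRCm38.p6. Alternatives were median scaling, normexp with an offset of 50, no detection filter, detection on every array, the comparison's arrays alone in the normalization, a single fit per tissue, the trend and robust options, a replicate block, the mean of a gene's probes, the study's rule (the 0.6% of probes with the highest SD, then 1.4-fold), and each array left out.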

Additional observations from a re-analysis of the deposited data

Results flagged for a closer look

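Each value here is a difference between 2 differences that passed its own test (limma, adjusted p under 0.05). In liver, the *Hfe* difference of *H1f2* was lower than its diet difference by -1.47 (SE 0.23, adjusted p 0.0196), the *Hfe* difference of *H4c1* was higher by 0.85 (SE 0.14, adjusted p 0.0200), and that of *H2ac19* was higher by 0.78 (SE 0.14, adjusted p 0.0273). *H1f2* was at -0.998 in *Hfe*-/- liver and at 0.48 on the iron diet, and neither of these passed alone. *H2ac19* was at 0.41 in *Hfe*-/- liver and at -0.37 on the iron diet, again with neither passing alone, whereas the fall of *H4c1* on the iron diet was itself called. Between tissues, the diet difference of *H2ac22* was higher in duodenum than in liver by 0.93 (SE 0.16, adjusted p 0.0256); it was at 0.54 in duodenum and at -0.36 in liver, and neither passed alone. In liver the 4 probes of *H2ac22* ranged between -0.58 and 0.09. No group held enough arrays for a check of single arrays that stand apart.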

How the results depend on the processing

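The counts of called members moved with several settings. In *Hfe*-/- liver, 1 member (*H1f2*) was called with no detection filter, with the trend and robust options, with the replicate block and by the study's rule, and 0 to 1 with an array left out. In liver on the iron diet, 0 were called under median scaling and by the study's rule, 2 with the mean of a gene's probes, and 0 to 7 with an array left out; the median was -0.073 with no detection filter. In *Hfe*-/- duodenum the median was -0.053 with no detection filter. In duodenum on the iron diet, 1 (*H2ac22*) was called with no detection filter and 0 to 1 with an array left out, and the median was 0.0017 under median scaling and between -0.15 and 0.045 with an array left out. For the *Hfe* against the diet difference in liver, 1 was called under median scaling and 0 to 4 with an array left out (duodenum 0 to 1). For the difference between tissues, 0 to 3 were called with an array left out for *Hfe*; for diet, 0 were called under median scaling, 2 with no detection filter, 2 with the trend and robust options, and 0 to 3 with an array left out. The causes were not tested.

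Signs turned for these members: in *Hfe*-/- liver, *H2ac13* (-0.00310) and *H2ac23* (-0.010) under median scaling, with lowest and highest values of -0.12 and 0.47 and of -0.10 and 0.37 when arrays were left out; in liver on the iron diet, *H2ac13* (-0.021) and *H2ac23* (-0.0095) with the replicate block (-0.044 to 0.25 and -0.0095 to 0.28 with an array left out); in *Hfe*-/- duodenum, *H2bc4* under median scaling (0.21) and with the mean of its probes (0.11), *H3c2* with the mean of its probes (-0.021), and, with an array left out, *H2bc4* (-0.35 to 0.30) and *H2ac19* (-0.085 to 0.46); and in duodenum on the iron diet, with an array left out, *H2ac13* (-0.12 to 0.37), *H2ac23* (-0.12 to 0.36), *H4c9* (-0.53 to 0.036), *H2bc4* (-0.15 to 0.39) and *H4c1* (-0.70 to 0.029). Of 851 values of named members under all alternatives, 787 kept direction and side of the threshold.

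Over all probes, calls in liver on the iron diet numbered 317, against 81 under median scaling and 23 to 438 with an array left out; in duodenum on the iron diet 69, against 0 under median scaling and 0 to 126; in *Hfe*-/- liver 4, against 25 with no detection filter and 1 to 16; in *Hfe*-/- duodenum 1, against 0 to 35. For the *Hfe* difference between tissues, median scaling put the median of all probes at 0.129.

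Replicate numbers did not pair the mice (correlations of deviations -0.02 and -0.15 in *Hfe*-/- and wild-type liver, 0.02 and 0.03 in the liver diet groups, -0.46 in *Hfe*-/- and wild-type duodenum, 0.15 and -0.20 in the duodenal diet groups). With the replicate block, calls over all probes were 9, 429, 0 and 41 in the 4 comparisons, and members called 1, 5, 0 and 0. In liver on the iron diet *H4c18* was not among these 5 (-0.36, adjusted p 0.109), and *H2ac10* was. A crossed pairing in *Hfe*-/- duodenum, chosen after seeing the data, called 61 probes and 0 members. The authors' normalized values were not run for duodenum.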
